A study of Mus musculus with 3 samples.

Results

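The BCL2 family decides at the mitochondrion whether a cell lives or dies, and 10 of its genes were followed here in activated T cells of aged mice given fumarate, aged mice given vehicle and young mice. The 10 genes were named by symbol, with earlier results of these data known, and all 10 were found among the 17796 genes of the deposited table. They comprise 4 guardians (Bcl2, Bcl2l1, Mcl1 and Bcl2a1b), 2 effectors (Bax and Bak1) and 4 BH3-only genes (Bcl2l11, Bid, Bbc3 and Pmaip1). The cells were spleen T cells of C57BL/6 mice, kept for 3 days with antibodies against CD3 (2 ug/ml) and CD28 (5 ug/ml) and with interleukin 2 (100 IU/ml), after which polyadenylated RNA was sequenced. The Old + Fumarate library came from aged mice dosed with fumarate, a metabolite of the mitochondrial citric acid cycle, at 10 mg/kg 3 times a week for 2 months. The Old library (called Old vehicle below) came from aged mice given vehicle on the same schedule, and 24 months is the age stated for the aged mice. The Young library came from mice aged 2 months, labelled as vehicle without a stated course. With 1 library per group, and pooling of mice not stated, none of the differences below could be tested against replicates, and no p-value is given.

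Guardian proteins keep the mitochondrial outer membrane intact by holding effector and BH3-only proteins. BH3-only proteins report stress, loss of growth factors or DNA damage, and free the effectors, which then form pores through which cytochrome c leaves to activate caspases. In T cells this balance sets how long resting cells persist and how quickly activated clones are removed after a response: Mcl1 and Bcl2 are needed for T cell survival, and Bcl2l11, which encodes BIM, is a main killer of activated T cells once cytokines run out.

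The region that gives the BH3-only genes their name is a short helix that binds the groove of the guardians, and it is the sequence most widely shared by these genes. A pattern of 6 codons, for leucine, 3 residues of any kind, glycine or alanine, and aspartate, was searched in frame in the longest annotated coding sequence of each gene (GENCODE M21, build GRCm38, the build called mm10). It was present in 9 of the 10 members, against 11.3% of 8128 protein-coding genes whose coding sequence has a length in the members' range of 309 to 993 bases and 24.0% of all 21540 protein-coding genes searched. The pattern describes the known BH3 region of this family, so this contrast is no independent test of the members. Pmaip1 held 2 matches and Bcl2a1b held none; no match says only that these codons are absent. The 8 members with a single match are shown so that the stretch can be compared across roles, each read 5′ to 3′ on the coding strand, with the codons for leucine, glycine or alanine, and aspartate in capitals.
Bcl2 (guardian, chr1:106712572-106712610, minus strand): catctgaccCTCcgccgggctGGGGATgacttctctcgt
Bcl2l1 (guardian, chr2:152829694-152829732, minus strand): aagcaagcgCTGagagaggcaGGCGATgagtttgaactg
Mcl1 (guardian, chr3:95659427-95659465, plus strand): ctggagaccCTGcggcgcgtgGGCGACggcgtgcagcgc
Bax (effector, chr7:45465994-45466032, minus strand): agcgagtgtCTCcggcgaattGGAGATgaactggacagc
Bak1 (effector, chr17:27022528-27022566, minus strand): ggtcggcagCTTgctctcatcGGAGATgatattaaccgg
Bcl2l11 (BH3-only, chr2:128147141-128147179, plus strand): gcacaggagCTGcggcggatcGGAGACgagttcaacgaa
Bid (BH3-only, chr6:120897286-120897324, minus strand): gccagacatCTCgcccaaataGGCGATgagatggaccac
Bbc3 (BH3-only, chr7:16313764-16313802, plus strand): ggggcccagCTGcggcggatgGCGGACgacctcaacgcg
Bbc3 was the member of these 8 with an alanine codon (GCG) in the place of the glycine codon. The stretch lies at codons 63 and 76 of the effectors Bax and Bak1, at codons 90, 94 and 194 of the guardians Bcl2l1, Bcl2 and Mcl1, and at codons 90, 141 and 150 of the BH3-only genes Bid, Bbc3 and Bcl2l11.

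Levels are given as CPM, the reads of a gene scaled to a total of 1000000 in every library. Depth was estimated at 13853883 reads for the Old + Fumarate, 17264517 for the Old vehicle and 40988615 for the Young library. Every member passed a minimum mean of 1 CPM over the 3 libraries, as did 13750 genes in all, and each member had at least 193 reads in each library. Intervals are 95% and cover counting error alone: exact Poisson intervals for a level, Clopper-Pearson intervals for a ratio of CPM. T cell markers were present in every library, with 16 of 16 listed markers above 0 and sums of 5238 CPM in the Old + Fumarate, 4307 CPM in the Old vehicle and 4828 CPM in the Young library. Without Thy1, the most abundant of them, the sums were 3785, 3320 and 4076 CPM.

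Markers of other blood lineages stood apart in the Old vehicle library and move with several of the results below. The 10 megakaryocyte and platelet markers summed to 284 CPM in the Old + Fumarate, 1886 CPM in the Old vehicle and 42.6 CPM in the Young library, with none at 0. The 9 basophil and mast cell markers in the table summed to 81.7, 453 and 5.42 CPM in the same order, again with none at 0. The 9 erythroid markers summed to 7.43, 143 and 2.54 CPM, the 9 macrophage and monocyte markers in the table to 5.49, 34.0 and 3.05 CPM, and the 7 neutrophil markers in the table to 1.30, 12.6 and 0.0732 CPM. Csf1r, the receptor that defines macrophages, was at 0 in the Old + Fumarate and Young libraries and at 3.74 CPM in the Old vehicle library, and the neutrophil markers S100a8 and S100a9 were also at 0 in all but the Old vehicle library. Hba-a2 and Alas2 among the erythroid markers were at 0 in the Old + Fumarate library, and Car1 was at 0 in the Young library. The 7 NK cell markers in the table summed to 188 CPM in the Old + Fumarate, 163 CPM in the Old vehicle and 57.6 CPM in the Young library, but most of this was Klrc1, and the other 6 summed to 46.3, 67.1 and 2.29 CPM. The 5 plasma cell markers in the table summed to 440.4, 438 and 701 CPM, nearly all of it Irf4, which activated T cells also express, and the other 4 summed to 5.63, 18.3 and 5.42 CPM. The 10 B cell markers summed to 19.3, 17.8 and 7.12 CPM, and to 10.03, 11.9 and 6.20 CPM without Ebf1. Dendritic cell markers summed to 20.8, 22.4 and 8.05 CPM. Without their most abundant gene, the NK and plasma cell lists were thus highest in the Old vehicle library too. The B cell list without Ebf1 was as well, but had no single direction between the aged libraries. Its marker Cd79b was at 1.37 CPM in the Old + Fumarate and 4.63 CPM in the Old vehicle library. Over the 5 B cell markers with a mean of at least 1 CPM, the median log2 ratio for Old + Fumarate over Old vehicle was 0.22. In RNA of mixed cells, a change in the share of a cell type and a change in RNA per cell cannot be told apart. The part of these cells in any result below was not tested.

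**Figure D1:**
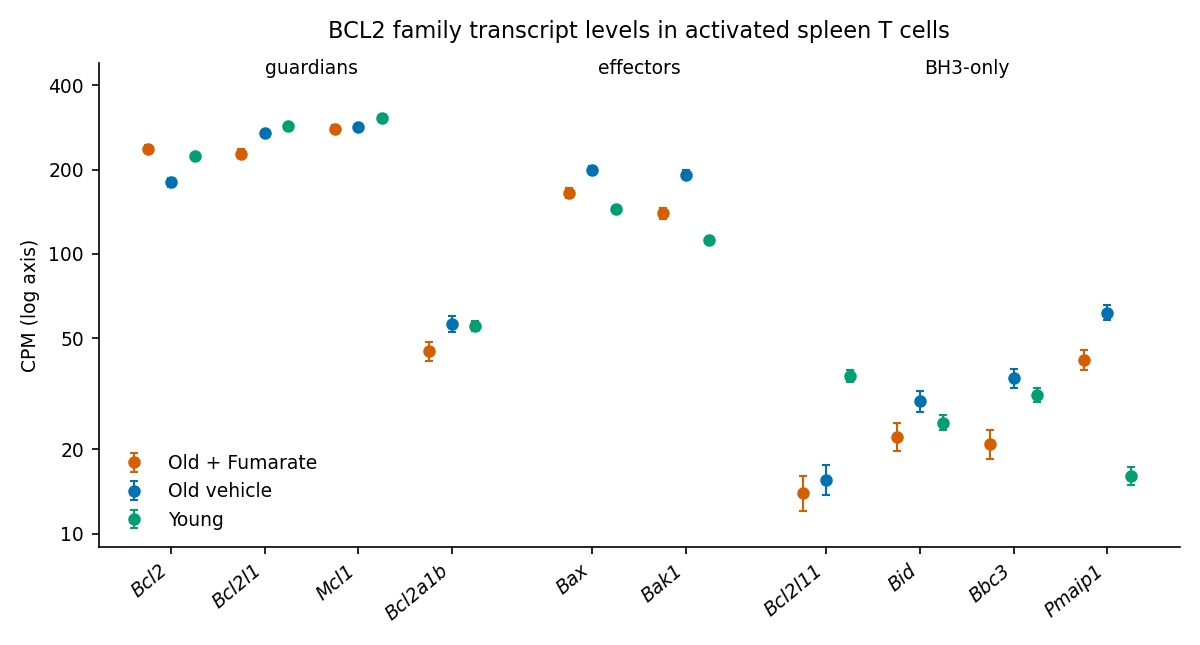
CPM of the 10 members on a log axis, grouped by role, in the Old + Fumarate, Old vehicle and Young libraries (1 library each); bars are exact 95% Poisson intervals for counting error alone. Pmaip1 and Bcl2l11 spread most widely over the libraries, from 16.1 to 61.6 CPM and from 13.9 to 36.6 CPM, and Mcl1 least, from 279 to 307 CPM.

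Among the guardians, Mcl1 was the steadiest, and Bcl2 was the member that was higher with fumarate than with vehicle. Mcl1, which encodes a short-lived guardian that needs constant synthesis (chr3:95658788-95663176), was at 279 CPM in the Old + Fumarate, 283 CPM in the Old vehicle and 307 CPM in the Young library. Its log2 ratio of CPM for Old + Fumarate over Old vehicle was −0.02, with an interval of −0.08 to 0.04. It was the member with the smallest range over the libraries, 0.13 on the log2 scale of CPM + 1.

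Bcl2, the founding guardian gene and a survival gene of resting and memory T cells (chr1:106538178-106714274), was at 238 CPM in the Old + Fumarate, 180 CPM in the Old vehicle and 223 CPM in the Young library. The Old vehicle library was thus the low one. The ratio of CPM was 1.32 for Old + Fumarate over Old vehicle (interval 1.25 to 1.38), 0.808 for Old vehicle over Young (0.775 to 0.841) and 1.06 for Old + Fumarate over Young (1.02 to 1.11). The share of genes with a lower log2 ratio of CPM + 1 than Bcl2 was 94.4% for Old + Fumarate over Old vehicle, though its ratio stayed inside the 1.5-fold limit used below. That log2 ratio depends on the scaling: it was 0.395, and 0.221 when the libraries were scaled to the T cell markers.

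Bcl2l1, which encodes the guardian BCL-XL that activation signals induce in T cells (chr2:152780668-152831728), followed another order. Its level was 228 CPM in the Old + Fumarate, 270.0 CPM in the Old vehicle and 287 CPM in the Young library, lowest with fumarate. The ratio was 0.846 for Old + Fumarate over Old vehicle (0.808 to 0.885), and 0.940 for Old vehicle over Young (0.909 to 0.973). The ratio of Bcl2 to Bcl2l1 CPM within a library, which no scaling can alter, was highest with fumarate: 1.04 (0.990 to 1.09) in the Old + Fumarate, 0.668 (0.638 to 0.699) in the Old vehicle and 0.778 (0.757 to 0.799) in the Young library. The 3 intervals do not overlap.

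Bcl2a1b, a copy of the A1 guardian gene that NF-kB signals induce in blood cells (chr9:89199209-89207827), was at 44.8 CPM in the Old + Fumarate, 56.2 CPM in the Old vehicle and 55.2 CPM in the Young library. The level with fumarate was the low one, with a ratio of 0.797 over Old vehicle (0.719 to 0.882) and of 0.812 over Young (0.742 to 0.888). Its level is uncertain, because mouse A1 genes are near-identical copies on chromosome 9. The coding sequences of Bcl2a1a, Bcl2a1b and Bcl2a1d each have 516 bases without the stop codon, and Bcl2a1b differs from Bcl2a1d at 6 bases (98.8% identical) and from Bcl2a1a at 11 (97.9% identical). Of the 50-base windows of the Bcl2a1b transcript, 57.6% also occur in another copy. The first 60 coding bases are shown because they hold 6 of the 12 positions at which the 3 copies differ, given in capitals.
Bcl2a1a (chr9:88957051-88957110, plus strand): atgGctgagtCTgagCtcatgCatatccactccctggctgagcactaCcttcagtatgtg
Bcl2a1b (chr9:89199360-89199419, plus strand): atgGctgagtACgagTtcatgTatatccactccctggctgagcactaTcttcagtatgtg
Bcl2a1d (chr9:88731660-88731719, minus strand): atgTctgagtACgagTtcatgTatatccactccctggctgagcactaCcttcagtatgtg

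The deposited values of Bcl2a1b lay between 0.325 and 0.397 of a read from a whole number of reads in each library. Those of Bcl2l11, Bbc3 and Pmaip1 lay within 0.003 of one. Such distances were not particular to Bcl2a1b: Bak1 lay 0.408 of a read away in the Old + Fumarate and 0.324 in the Young library. Bcl2l1 lay 0.381 away in the Young library. The source of these fractions was not tested. Bcl2a1d was at 32.3 CPM in the Old + Fumarate, 38.0 CPM in the Old vehicle and 35.0 CPM in the Young library, and Bcl2a1a at 2.32, 4.34 and 1.48 CPM. The 3 copies together were at 79.4 CPM in the Old + Fumarate, 98.5 CPM in the Old vehicle and 91.7 CPM in the Young library, so that the sum, too, was lowest with fumarate.

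The guardians summed to nearly the same level in both aged libraries, 790 CPM in the Old + Fumarate and 790.0 CPM in the Old vehicle library, against 873 CPM in the Young library. Their make-up differed: Bcl2 took 30.1% of guardian CPM in the Old + Fumarate, 22.8% in the Old vehicle and 25.6% in the Young library, and Bcl2l1 took 28.9%, 34.2% and 32.9%. Mcl1 took between 35.2% and 35.9% in all 3 libraries.

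The effectors were highest in the Old vehicle library and lowest in the Young library, with the Old + Fumarate library between. Bax, which encodes a pore-forming protein that waits in the cytosol (chr7:45461697-45466898), was at 165 CPM in the Old + Fumarate, 200.1 CPM in the Old vehicle and 145 CPM in the Young library. Bak1, its partner that resides in the mitochondrial membrane (chr17:27019810-27029009), was at 139 CPM in the Old + Fumarate, 192 CPM in the Old vehicle and 112 CPM in the Young library. None of the 3 Poisson intervals of either gene overlaps another: for Bak1 they run from 133 to 146, from 186 to 199 and from 109 to 115 CPM.

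For Bak1 the ratio was 0.726 for Old + Fumarate over Old vehicle (0.686 to 0.768), 1.71 for Old vehicle over Young (1.64 to 1.79) and 1.24 for Old + Fumarate over Young (1.18 to 1.31). For Bax the ratios were 0.822 (0.779 to 0.867), 1.38 (1.32 to 1.44) and 1.13 (1.08 to 1.19). Bak1 thus differed more than Bax in each comparison, though for Old + Fumarate over Young the intervals of the 2 genes overlap. The ratio of Bak1 to Bax CPM was 0.848 in the Old + Fumarate (0.797 to 0.901), 0.959 in the Old vehicle (0.915 to 1.01) and 0.773 in the Young library (0.744 to 0.804). The third pore-forming relative, Bok, was low, at 0.794 CPM in the Old + Fumarate, 0.463 CPM in the Old vehicle and 0.610 CPM in the Young library.

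The BH3-only genes Pmaip1 and Bcl2l11 had the widest ranges of the 10 members, and differed from Young in opposite directions. Pmaip1, which encodes NOXA, a p53 target that binds MCL1 and A1 (chr18:66458533-66465565), was at 41.6 CPM in the Old + Fumarate, 61.6 CPM in the Old vehicle and 16.1 CPM in the Young library. Both aged libraries were above the Young one, and the ratio was 3.83 for Old vehicle over Young (3.47 to 4.22) and 2.59 for Old + Fumarate over Young (2.31 to 2.90). With fumarate it was lower than with vehicle, at a ratio of 0.676 (0.610 to 0.749), which on the log2 scale of CPM + 1 is −0.55 and just inside the limit of 0.585.

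Bcl2l11, which encodes BIM, a BH3-only protein that binds every guardian (chr2:128126038-128162547), was instead lower in both aged libraries than in the Young one. It was at 13.9 CPM in the Old + Fumarate, 15.6 CPM in the Old vehicle and 36.6 CPM in the Young library. The ratio was 0.425 for Old vehicle over Young (0.372 to 0.484) and 0.380 for Old + Fumarate over Young (0.326 to 0.442). Between the aged libraries the ratio was 0.894, and its interval of 0.739 to 1.08 holds 1, so that at 193 and 269 reads no difference was detectable. Only 1.3% of genes had a lower log2 ratio of CPM + 1 than Bcl2l11 for Old vehicle over Young, and 94.7% had a lower ratio than Pmaip1. The ratio of Pmaip1 to Bcl2l11 CPM was therefore 2.99 in the Old + Fumarate (2.54 to 3.54), 3.96 in the Old vehicle (3.46 to 4.54) and 0.439 in the Young library (0.4004 to 0.482).

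Bbc3, which encodes PUMA, another p53 target that binds every guardian (chr7:16308393-16318205), was the low one with fumarate. Its level was 20.9 CPM in the Old + Fumarate, 35.9 CPM in the Old vehicle and 31.4 CPM in the Young library, and the interval of the Old + Fumarate level, 18.5 to 23.4 CPM, lies below both others. The ratio was 0.581 for Old + Fumarate over Old vehicle (0.503 to 0.669), 0.665 for Old + Fumarate over Young (0.584 to 0.757) and 1.15 for Old vehicle over Young (1.04 to 1.26). Bid, which links death receptors to the mitochondrion once caspase 8 has cut it (chr6:120891930-120916853), was at 22.2 CPM in the Old + Fumarate, 29.8 CPM in the Old vehicle and 24.96 CPM in the Young library. Its ratio was 0.746 for Old + Fumarate over Old vehicle (0.646 to 0.862), and 0.891 for Old + Fumarate over Young, with an interval of 0.782 to 1.01 that holds 1.

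**Figure D2:**
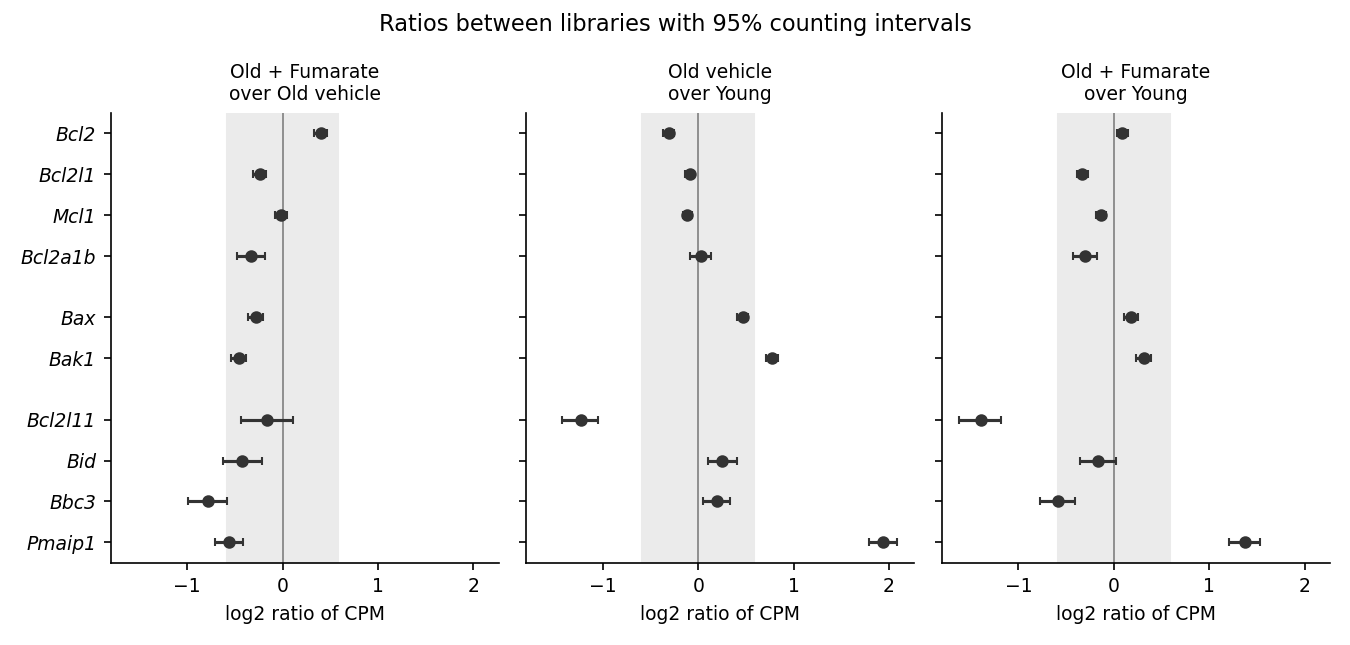
Log2 ratios of CPM for the 10 members in the 3 comparisons, with 95% Clopper-Pearson intervals for counting error alone; the grey band marks 1.5-fold and each point compares 1 library with 1 library. Most members lie inside the band, while Bcl2l11 lies below it and Pmaip1 above it in both comparisons with Young, at −1.23 and 1.94 for Old vehicle and at −1.40 and 1.37 for Old + Fumarate.

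The first comparison, Old + Fumarate over Old vehicle, asks how activated T cells of aged mice given fumarate differed from those of aged mice given vehicle. A member was counted when its log2 ratio of CPM + 1 was past 1.5-fold. Bbc3, at −0.76, was the 1 member of 10 counted as lower, against 11.2% of all 13750 genes, and 0 of 10 were counted as higher, against 2.15% of all genes. The share of members counted was thus near that of all genes. Of the 10 log2 ratios, Bbc3 included, 9 were negative and that of Bcl2 was positive, at 0.40, while 54.2% of all genes were negative. The count of 9 depends on the scaling, since Mcl1 was at −0.02, and at 0.05 with upper-quartile scaling. The median over the members was −0.30, against −0.03 for all genes. By role it was −0.13 for the 4 guardians, −0.37 for the 2 effectors and −0.48 for the 4 BH3-only genes. In the other family genes this order did not hold, with medians of −0.28 for 3 other guardians and −0.01 for 3 other BH3-only genes. The counting intervals lay below 0 for 7 members and above 0 for 1, and held 0 for Mcl1 and Bcl2l11. With scaling to the T cell markers, Bak1 and Pmaip1 also passed the limit, making 3 members lower, against 15% of all genes with that scaling, and the median of all genes moved to −0.19.

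The second comparison, Old vehicle over Young, asks how cells of aged mice given vehicle differed from those of young mice. Pmaip1 (log2 ratio of CPM + 1 of 1.87) and Bak1 (0.77) were the 2 members of 10 counted as higher, against 16.5% of all genes, and Bcl2l11 (−1.18) was the 1 counted as lower, against 6.73% of all genes. These shares, too, were near those of all genes. The median over the members was 0.11, against 0.03 for all genes. By role it was −0.10 for the 4 guardians, 0.62 for the 2 effectors and 0.22 for the 4 BH3-only genes. The BH3-only members ran from −1.18 to 1.87. The other guardians of the family (3 genes, A1 copies included) had a median of 0.48, and the other BH3-only genes (3 genes) of 0.02. The differences of Mcl1, Bcl2 and Bcl2l1 from Young, −0.11, −0.31 and −0.09, depend on the scaling: scaled to the T cell markers they were 0.21, 0.02 and 0.24, with the median of all genes moved to 0.34 and 28.9% of genes counted as higher and 2.84% as lower. Bax also passed the limit with that scaling, at 0.79, making 3 members higher.

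The third comparison set Old + Fumarate against Young. It shares the Old + Fumarate library with the first comparison and the Young library with the second, so its values are not independent of theirs. Pmaip1 (1.32) was the 1 member of 10 counted as higher, against 10.5% of all genes, and Bcl2l11 (−1.33) the 1 counted as lower, against 6.79% of all genes. Bbc3, at −0.57, lay just inside the limit, and with upper-quartile scaling 1 member was higher and 2 were lower, against 10.1% and 7.44% of all genes. Bcl2 was within 0.09 of the Young library, Bax at 0.18 and Bak1 at 0.31. The median over the members was −0.15, against 0.01 for all genes. Scaled to the T cell markers, the median over the members was 0.00 and that over all genes 0.15, with 13.6% of genes counted as higher and 4.50% as lower. With a 2-fold limit in place of 1.5-fold, 0 members were higher in Old + Fumarate over Old vehicle (0.291% of all genes) and 0 lower (6.57%), 1 was higher in Old vehicle over Young (10.1%) and 1 lower (2.01%), and 1 was higher in Old + Fumarate over Young (5.01%) and 1 lower (2.35%).

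**Figure D3:**
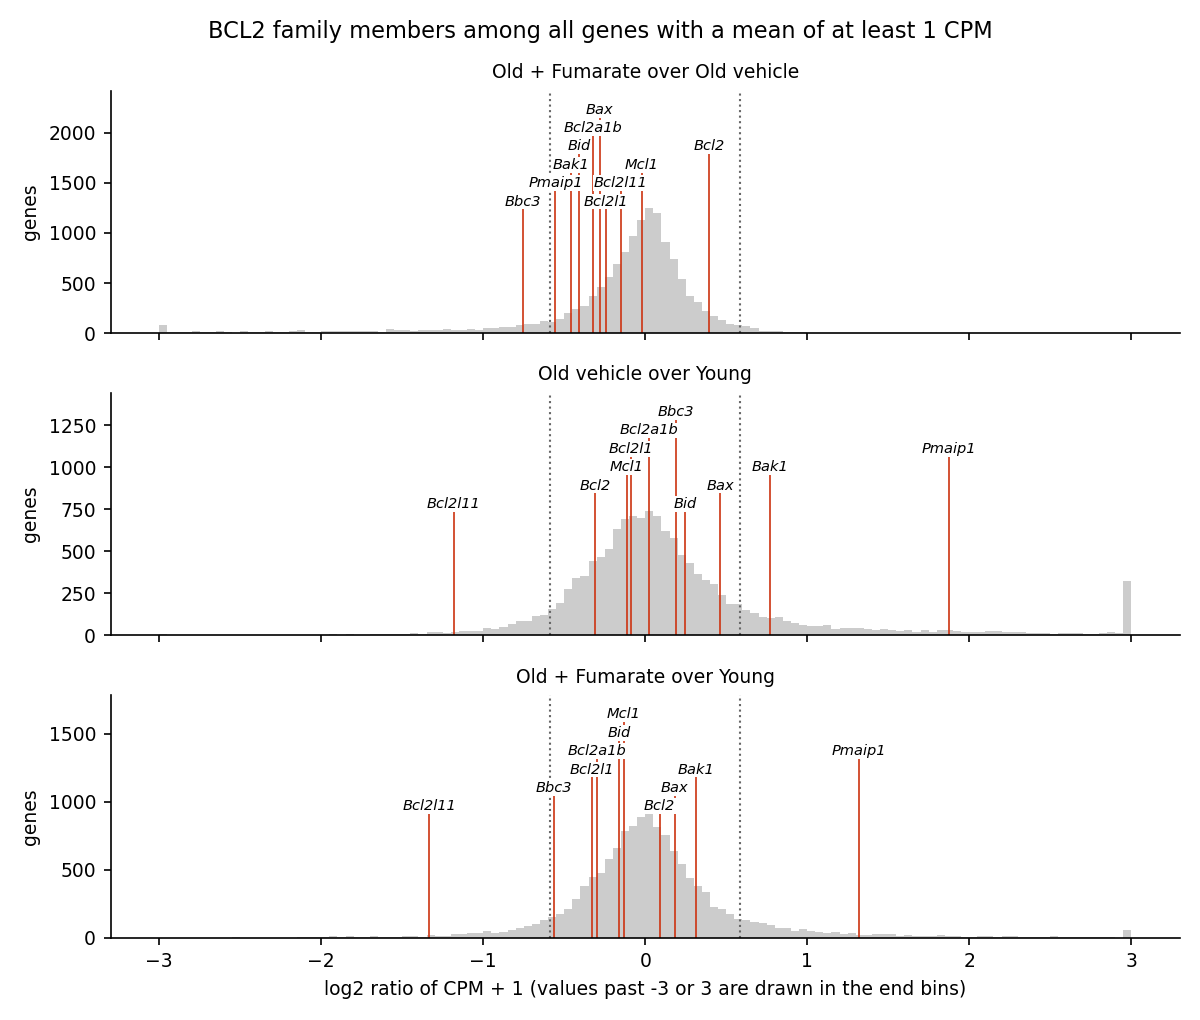
Histograms of the log2 ratio of CPM + 1 of all 13750 genes with a mean of at least 1 CPM (grey, number of genes on the vertical axis), with the 10 members as red lines and 1.5-fold as dotted lines, for the 3 comparisons. For Old + Fumarate over Old vehicle 9 members stand left of 0 and Bcl2 right of it, and in both comparisons with Young the outermost members are Bcl2l11 and Pmaip1.

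Set against the guardians of the same library, the summed effectors and the summed BH3-only genes were highest in the Old vehicle library, although Bcl2l11 alone was highest in the Young library. These ratios of reads within a library do not depend on scaling between libraries. Effector reads per 100 guardian reads were 38.5 in the Old + Fumarate (37.1 to 39.9), 49.6 in the Old vehicle (48.2 to 51.1) and 29.5 in the Young library (28.8 to 30.1). The order of the libraries was thus the same as for each effector alone. Reads of the 4 BH3-only genes per 100 guardian reads were 12.5 in the Old + Fumarate (11.8 to 13.2), 18.1 in the Old vehicle (17.3 to 18.9) and 12.5 in the Young library (12.1 to 12.9).

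The BH3-only sums of the Old + Fumarate and Young libraries, 12.5 in both, were made of different genes. Pmaip1 gave 5.27 reads per 100 guardian reads in the Old + Fumarate, 7.80 in the Old vehicle and 1.845 in the Young library. Bcl2l11 gave 1.76 in the Old + Fumarate, 1.97 in the Old vehicle and 4.20 in the Young library, while Bbc3 gave 2.64, 4.55 and 3.59 and Bid 2.81, 3.77 and 2.86. With levels per kilobase of exon the Old + Fumarate and Young sums were no longer equal: the BH3-only sums were then 15.6 per 100 of the guardians in the Old + Fumarate, 21.6 in the Old vehicle and 13.2 in the Young library. Without Bcl2a1b among the guardians, in reads, they were 13.2, 19.5 and 13.3.

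**Figure D4:**
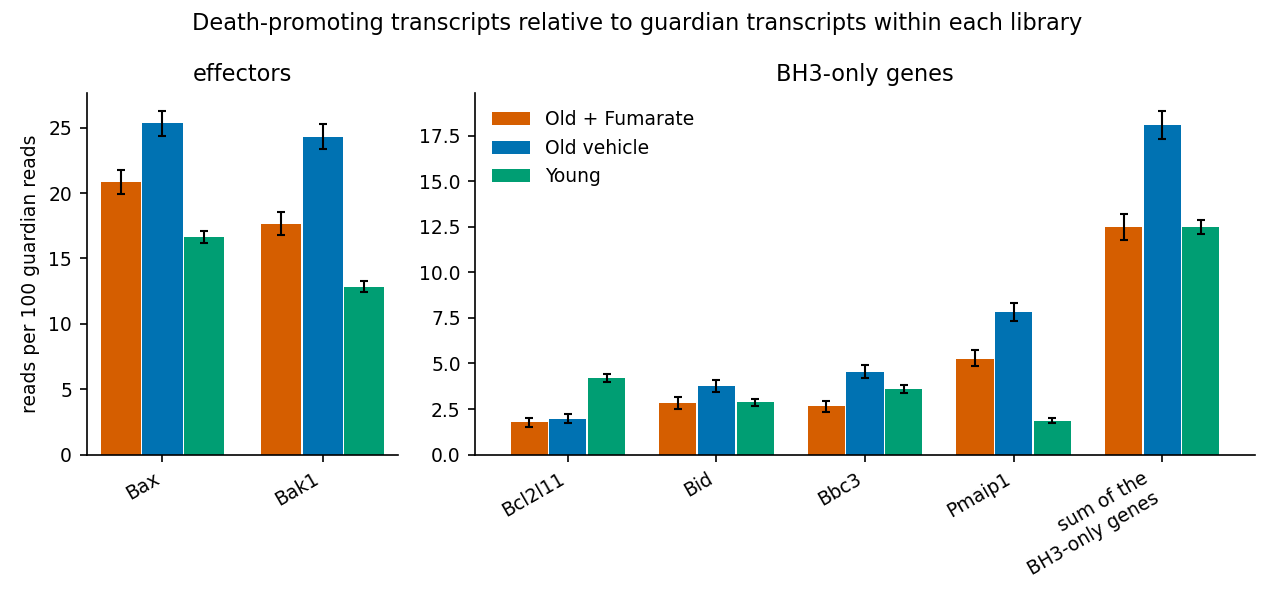
Reads of each effector (left) and BH3-only gene (right) per 100 reads of the 4 guardians within the same library, with exact 95% intervals for counting error alone and axes from 0. The sum of the BH3-only genes stands at 12.5 in both the Old + Fumarate and the Young library and at 18.1 in the Old vehicle library.

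Levels of different genes were compared per kilobase of annotated exon. On that scale Bax was the most abundant member, at 104 CPM per kilobase in the Old + Fumarate, 127 in the Old vehicle and 92.0 in the Young library. Mcl1 followed at 81.8, 82.9 and 89.8 CPM per kilobase in the same libraries. The lowest was Bcl2l11, at 1.74, 1.94 and 4.56 CPM per kilobase. Between them, by the mean of the libraries, stood Bcl2a1b, Bak1 and Bcl2l1 at 63.7, 61.4 and 57.1 CPM per kilobase, then Bcl2 at 23.3, Pmaip1 at 14.6, Bbc3 at 13.8 and Bid at 7.23. The neighbours Bcl2a1b, Bak1 and Bcl2l1 changed places between libraries, as did Pmaip1, Bbc3 and Bid. Pmaip1 also stood above Bcl2 in the Old vehicle library, at 22.6 against 19.7 CPM per kilobase, and below it in the others. Exon length counts every annotated exon, which lowers genes with long untranslated ends such as Bcl2 (9.16 kb of exon).

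The other genes of the family were followed in lists of 20 genes, of which 14 had a mean of at least 1 CPM. For Old + Fumarate over Old vehicle 1 was counted as higher and 1 as lower (median 0.00), for Old vehicle over Young 1 as higher and 4 as lower (median 0.06), and for Old + Fumarate over Young 0 as higher and 4 as lower (median −0.04). The shares of all genes, against which the counts of this and the following lists are to be read, were 2.15% higher and 11.2% lower for Old + Fumarate over Old vehicle, 16.5% and 6.73% for Old vehicle over Young, and 10.5% and 6.79% for Old + Fumarate over Young. Bnip3, a hypoxia-induced mitophagy receptor with a BH3-like region, was at 109 CPM in the Old + Fumarate, 62.4 CPM in the Old vehicle and 194 CPM in the Young library, and was the 1 gene counted as higher with fumarate than with vehicle. Its relative Bnip3l was at 108 CPM in the Old + Fumarate, 108 CPM in the Old vehicle and 194 CPM in the Young library. Bmf, a BH3-only gene of cells that lose their anchorage, was at 1.66, 1.68 and 4.98 CPM in the same order, lower in both aged libraries as Bcl2l11 was, and Bcl2l14, a divergent family gene, was at 1.66, 1.51 and 4.25 CPM. The gene counted as lower with fumarate than with vehicle, and the 1 counted as higher in Old vehicle over Young, was Bcl2a1a, the A1 copy given above. Bad, a BH3-only gene that growth factor signals silence, was at 19.96, 23.6 and 16.1 CPM, and the guardian Bcl2l2 at 31.8, 38.9 and 27.6 CPM.

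Downstream of the family, the apoptosome and caspase list was measured in full (17 genes). For Old + Fumarate over Old vehicle 0 were higher and 1 lower, for Old vehicle over Young 2 higher and 1 lower, and for Old + Fumarate over Young 1 higher and 2 lower. The medians were 0.11, 0.05 and −0.09. Casp6, an executioner caspase, was at 44.5 CPM in the Old + Fumarate, 37.5 CPM in the Old vehicle and 21.03 CPM in the Young library, and Endog, a mitochondrial nuclease, at 14.7, 10.6 and 23.1 CPM. Of the 7 inhibitors of apoptosis proteins, 2 were higher in Old vehicle over Young and 3 in Old + Fumarate over Young, with 0 lower in either, and 0 were higher and 1 lower in Old + Fumarate over Old vehicle, with medians of −0.11, −0.01 and −0.08. Those with the largest ratios were Naip5 (5.56, 12.8 and 0.317 CPM) and Naip2 (21.3, 30.2 and 4.05 CPM), related inflammasome sensors known from macrophages. Their sequences were not compared here, so their separate levels are uncertain. Birc2, a regulator of NF-kB signalling, was at 70.7, 65.7 and 45.0 CPM in the same order.

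In the death receptor list (11 genes), 3 were higher and 0 lower in Old vehicle over Young (16.5% and 6.73% of all genes), 2 higher and 1 lower in Old + Fumarate over Young (10.5% and 6.79% of all genes), and 1 higher and 0 lower in Old + Fumarate over Old vehicle, with medians of 0.17, 0.20 and −0.08. Tnfsf10, which encodes the death ligand TRAIL, was at 26.3 CPM in the Old + Fumarate, 36.6 CPM in the Old vehicle and 9.44 CPM in the Young library. Tnfrsf10b, its mouse death receptor, was at 51.5, 47.5 and 32.0 CPM, and Tnfrsf1a, a receptor for TNF, at 19.99, 29.8 and 17.3 CPM. Fasl, which encodes the ligand of FAS, was at 50.2 CPM in the Old + Fumarate, 31.6 CPM in the Old vehicle and 46.8 CPM in the Young library, and was the gene counted as higher with fumarate than with vehicle.

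Of the lists of upstream regulators, p53 and its targets stood furthest from 0 in Old vehicle over Young, with 7 of 20 higher, 1 lower and a median of 0.41, against 16.5% higher, 6.73% lower and a median of 0.03 for all genes. In Old + Fumarate over Young 4 were higher and 3 lower (median 0.20), against 10.5% and 6.79% of all genes, and in Old + Fumarate over Old vehicle 0 were higher and 1 lower (median −0.16), against 2.15% and 11.2%. Eda2r, a TNF receptor family gene under p53, was at 9.53 CPM in the Old + Fumarate, 12.9 CPM in the Old vehicle and 1.73 CPM in the Young library. Cdkn1a, which encodes the cell cycle inhibitor p21, was at 644, 710.2 and 344 CPM, whereas Perp, a membrane protein gene under p53, ran the other way at 19.9, 28.6 and 62.9 CPM. Trp53 itself was at 159 CPM in the Old + Fumarate, 162 CPM in the Old vehicle and 143 CPM in the Young library, inside 1.5-fold.

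The FOXO, AP-1 and stress list, whose factors are known to control BH3-only genes, had 1 of 13 genes higher and 3 lower in Old vehicle over Young, 0 higher and 3 lower in Old + Fumarate over Young, and 0 higher and 2 lower in Old + Fumarate over Old vehicle, with medians of −0.17, −0.33 and −0.11. Trib3 and Ddit3, stress genes downstream of ATF4, were at 12.3 and 11.0 CPM in the Old + Fumarate, 14.3 and 20.04 CPM in the Old vehicle and 57.7 and 32.1 CPM in the Young library. Egr1, an immediate early factor, was at 37.4, 83.9 and 36.4 CPM in that order. Foxo3, a factor known to drive Bcl2l11, was at 55.6 CPM in the Old + Fumarate, 76.5 CPM in the Old vehicle and 72.5 CPM in the Young library.

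Survival cytokine receptors and STAT5 genes were all within 1.5-fold between the aged libraries (16 genes, median 0.06). In Old vehicle over Young 3 were higher and 2 lower (median 0.20), and in Old + Fumarate over Young 5 higher and 2 lower (median 0.29). Il7r, the receptor for interleukin 7, was at 102 CPM in the Old + Fumarate, 75.9 CPM in the Old vehicle and 48.2 CPM in the Young library, and Socs2, a feedback inhibitor of cytokine signals, at 45.3, 59.6 and 28.9 CPM. Il15ra, the presenting receptor for interleukin 15, was at 11.0, 13.9 and 23.2 CPM.

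NF-kB genes were likewise all within 1.5-fold between the aged libraries (14 genes, median 0.12), with 2 higher and 2 lower in Old vehicle over Young (median 0.17) and 2 higher and 1 lower in Old + Fumarate over Young (median 0.32). Traf1, a signal adaptor, was at 667 CPM in the Old + Fumarate, 456 CPM in the Old vehicle and 244 CPM in the Young library. Tnfaip3, which encodes the NF-kB inhibitor A20, was at 281, 303 and 133 CPM, and Tnfrsf4, the costimulatory receptor OX40, at 156, 146 and 350.1 CPM. The genes that control turnover of the MCL1 and BIM proteins lay within 1.5-fold in all 3 comparisons, for the 10 of 11 with a mean of at least 1 CPM, with medians of 0.08, −0.06 and 0.01 for Old + Fumarate over Old vehicle, Old vehicle over Young and Old + Fumarate over Young. Those with the largest ratios were Fbxo4, at 16.96, 13.2 and 19.2 CPM, Ube2c, at 129, 112 and 141 CPM, and Btrc, at 15.8, 19.6 and 16.6 CPM.

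The genes most like the 3 most variable members were sought among 8797 other protein-coding genes with a mean of at least 10 CPM, by distance in the log2 ratios of Old vehicle over Young and Old + Fumarate over Old vehicle. With 3 libraries this likeness rests on 2 ratios alone. For Pmaip1 they were Pros1, which encodes the anticoagulant protein S (distance 0.07), Tnfsf10 (0.09) and the chemokine gene Ccl22 (0.11), and 15 genes lay within 0.25. Pros1 was at 42.9 CPM in the Old + Fumarate, 60.7 CPM in the Old vehicle and 15.5 CPM in the Young library. For Bcl2l11 they were the interferon-inducible Ifi211 (0.07), the deubiquitinase gene Usp28 (0.09) and the chromatin remodeller gene Chd3 (0.14), with 20 genes within 0.25, and Ifi211 was at 18.3, 21.1 and 51.2 CPM. The pattern of Bak1 was common, with 242 genes within 0.25, the nearest being Irgq (0.02), Pip5k1c (0.02) and Sypl (0.03).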

How the data were processed

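Polyadenylated RNA was read from 500 ng of total RNA (SMARTER chemistry), per the labels' protocols. The submitters' processing notes name mm10, Partek and STAR, but versions and gene annotation were not given in the sources used here. All deposited values are CPM although the table is named as raw counts: each of its 3 columns sums to 1000000. The worth of 1 read was estimated from the steps between low values. With a tolerance of 0.02 reads, 58.0% to 67.7% of values were whole, so no count model was fitted, and intervals use reads rounded to whole numbers. The strand setting is not given, so overlapping antisense genes cannot be told apart. Groups come from the titles. Ratios are log2 of CPM + 1, the limit is 1.5-fold, and genes need a mean of 1 CPM. A plain CPM ratio, with its interval, omits the added 1. Gene ends in the table were moved back by 1 base, after which the 10 members and 2 copies matched GENCODE M21. Exon length is the union of annotated exons. The rule for named genes was all members, and per list the 3 genes with the largest ratio (4 for the pooled family lists), plus a few after their values were seen: Bad, Bcl2l2, Bok, Bnip3l, Bcl2a1d, Trp53, Fasl, Foxo3 and the lineage markers. Some genes that this rule names are not reported here. Members and lists were chosen with earlier results of these data known. Calls and intervals were tried on simulated whole reads, with changes well past the limit. Changes near the limit and values that are not whole reads were not simulated. Calculations used scipy 1.17.1, Biopython 1.88, pandas 2.3.3 and numpy 2.4.6, and drawings matplotlib 3.10.9, all under Python 3.11.15. The alternatives were 4 other scalings, other constants, minimums and limits, protein-coding genes alone and thinning to the smallest library.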

Additional observations from a re-analysis of the deposited data

How the results depend on the processing

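With 1 library per group no replicate could be left out, and the spread between animals is unknown. No paired analysis was possible because each group has 1 library. Counts of members moved by over 1.5 times in these cases. With a 2-fold limit, Old vehicle over Young had 1 member higher in place of 2, and Old + Fumarate over Old vehicle had 0 lower in place of 1. With scaling to the T cell markers, Old + Fumarate over Old vehicle had 3 members lower. With upper-quartile scaling, with a constant of 0.1 CPM and with protein-coding genes alone in the total, Old + Fumarate over Young had 2 members lower in place of 1, since Bbc3 passed the limit. TMM scaling, median-of-ratios scaling, a constant of 5 CPM, no minimum, a mean of at least 10 CPM, thinning, and the sum of the 3 Bcl2a1 copies (an addition made after seeing the data) moved no count past that. No counted ratio of a member changed sign under any of these. The log2 ratio of Pmaip1 ran from 1.66 to 2.19 and that of Bcl2l11 from −1.28 to −0.87 for Old vehicle over Young, and that of Bbc3 from −0.93 to −0.66 for Old + Fumarate over Old vehicle. Mcl1 changed sign in all 3 comparisons, and Bcl2, Bcl2l1 and Bcl2a1b did for Old vehicle over Young, all within 1.5-fold. Depth limits Bcl2l11 between the aged libraries most, at 193 and 269 reads.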
